A study of Mus musculus with 29 samples.

Results

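The genes studied belong to the leukocyte cytoskeleton and to leukocyte migration. Ptprc, Cd53, Coro1a, Lsp1, Lcp1, Hcls1, Was, Rac2, Arhgdib and Dock2 were followed across lymph nodes, renal tertiary lymphoid structures (TLS) and kidneys of lupus-prone mice. They were taken by name, with no threshold on their values but with earlier results of these data known, and are 10 of the 13982 genes listed in the table. The mice were (NZBxNZW)F1 animals, a hybrid strain that spontaneously develops anti-DNA antibodies and lupus nephritis. Polyadenylated RNA was sequenced on the Ion Torrent platform in 14 libraries. The 10 libraries of proteinuric mice were 4 kidneys (mouse H6 at 39 weeks, H20 at 36 weeks, H117 at 32 weeks and H115 at 25 weeks), 3 TLS (H6, H20 and H115) and 3 lymph nodes (H6, H20 and H117). The remaining 4 were lymph nodes: 3 from mice described as antibody positive for less than 5 weeks (D10 at 28 weeks, D11 at 29 weeks and L25 at 18 weeks) and 1 from a mouse described as young (C45 at 4 weeks). The TLS were immune aggregates cut out of proteinuric kidneys by hand under a magnifier, and the kidney libraries were tissue of the same organ, so neither is a pure cell population.

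Crawling leukocytes push forward by building branched actin filaments at the front, and this is switched on by small GTPases. The hematopoietic GTPase Rac2 is held inactive in the cytosol by the inhibitor Arhgdib and is activated by the exchange factor Dock2, which lymphocytes need to reach lymph nodes. Was, the Wiskott-Aldrich syndrome protein, and Hcls1, the hematopoietic relative of cortactin, turn such signals into actin branching through the Arp2/3 complex. Coro1a, Lsp1 and Lcp1 (L-plastin) bind, remodel or bundle the filaments. Ptprc (CD45), the leukocyte tyrosine phosphatase, and Cd53, a leukocyte tetraspanin, sit in the plasma membrane. All of these genes are known to be expressed mainly by blood-derived cells, and most of them have relatives with similar function in many other cell types.

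Positions are given in GRCm38 (GENCODE M21). Ptprc is at chr1:138062861-138175708, Cd53 at chr3:106759921-106790149, Arhgdib at chr6:136923655-136941899, Coro1a at chr7:126699773-126707787 and Lsp1 at chr7:142460809-142494867. Dock2 is at chr11:34226815-34783892, Lcp1 at chr14:75131101-75230842, Rac2 at chr15:78559167-78572783, Hcls1 at chr16:36934983-36963212 and Was at chrX:8081453-8090498. Coro1a overlaps Bola2 on the opposite strand, and since counting by strand is not stated, reads of these 2 genes in the shared stretch cannot be told apart.

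Sequences upstream of 3 genes are shown because each of these genes exceeded its kidney level in the other 2 tissues. They did not all move together from TLS to lymph node. In mouse H6 Cd53 rose while Dock2 and Hcls1 fell, and in mouse H20 all 3 rose. The sequences show which motifs these start regions do and do not hold. RefSeq (GRCm38.p6) gave start regions for 8 of the 10 genes, in 13 windows of 250 bases before a transcript start. Each window was searched on both strands for GAGGAA (bound by PU.1 and other Ets factors), TGTGGT (Runx factors), GGGCGG (Sp1) and TATAAA (the core promoter box that TBP binds). Matches are in capitals, and a match on the opposite strand appears as its reverse complement. The windows are on the minus strand for Cd53 (chr3:106790150-106790399) and Dock2 (chr11:34783906-34784155) and on the plus strand for Hcls1 (chr16:36934733-36934982).
Cd53: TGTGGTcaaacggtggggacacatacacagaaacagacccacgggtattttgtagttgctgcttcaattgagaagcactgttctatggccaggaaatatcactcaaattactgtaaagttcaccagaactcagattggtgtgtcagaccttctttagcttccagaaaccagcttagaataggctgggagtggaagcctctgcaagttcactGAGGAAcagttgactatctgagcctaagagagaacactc
Dock2: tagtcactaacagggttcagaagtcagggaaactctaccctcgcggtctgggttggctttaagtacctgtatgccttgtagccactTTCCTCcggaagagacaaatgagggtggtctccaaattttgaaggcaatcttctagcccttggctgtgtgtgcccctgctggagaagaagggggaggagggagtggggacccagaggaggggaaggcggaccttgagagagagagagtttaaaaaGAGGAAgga
Hcls1: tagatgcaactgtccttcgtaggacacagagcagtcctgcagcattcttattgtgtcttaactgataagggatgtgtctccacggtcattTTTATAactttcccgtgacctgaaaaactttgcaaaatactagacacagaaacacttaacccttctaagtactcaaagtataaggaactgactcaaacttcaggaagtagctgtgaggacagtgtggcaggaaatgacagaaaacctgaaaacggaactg
In Cd53 the sequence GAGGAA began 39 bases before the start and TGTGGT at 250 bases. In Dock2 the sequence GAGGAA occurred 9 bases before the start and, on the opposite strand, at 164 bases. In Hcls1 only TATAAA on the opposite strand was found, at 160 bases. The matches within each of these 3 windows did not overlap. Of the 13 windows, 4 held GAGGAA (in Arhgdib, Cd53, Dock2 and Ptprc), 2 held TGTGGT (Cd53 and Was), 3 held GGGCGG (Arhgdib, Coro1a and Lcp1) and 3 genes held TATAAA (Arhgdib, Hcls1 and Ptprc). Over all 32851 windows of the table, 23.25% held GAGGAA, 14.05% TGTGGT, 32.74% GGGCGG and 12.37% TATAAA. These matches are letters in a window and were not measured as binding.

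Each library held 343825 to 443379 reads assigned to genes, so a gene of low level rested on a handful of reads. Levels are given as normalized reads, the reads of a gene divided by the size factor of its library, and 1 read was worth 0.786 to 1.77 of them. Ribosomal RNA took 59.6% of the reads of kidney H117, 32.7% of lymph node H6 and 24.6% of TLS H115, and at most 7.57% elsewhere, so values from those 3 libraries rest on fewer informative reads. In bulk tissue, fewer cells of a type and less RNA per cell cannot be told apart. The 10 genes together had 20 to 164 reads in each kidney library, 423 to 983 in each TLS and 811 to 1708 in each lymph node.

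The first comparison asked how far TLS differ from the surrounding kidney. Each of the 10 genes had a higher level in TLS, where the lowest TLS library was above the highest kidney library. Their fitted log2 fold changes ran from 2.08 to 3.20 with a median of 2.47, against a median of -0.01 over the 7382 genes tested. All 10 passed at a limma adjusted p below the threshold of 0.05 (Benjamini-Hochberg over all genes tested, largest 0.0193 for Hcls1), where 14.7% of the genes tested were called in either direction, 8.62% were called higher in TLS and 13.4% had libraries that did not overlap in that direction. Summed over the 10 genes, the kidneys had 114 (H6), 138 (H20), 32.5 (H115) and 35.5 (H117) normalized reads and the TLS had 834 (H6), 456 (H20) and 461 (H115).

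**Figure D1:**
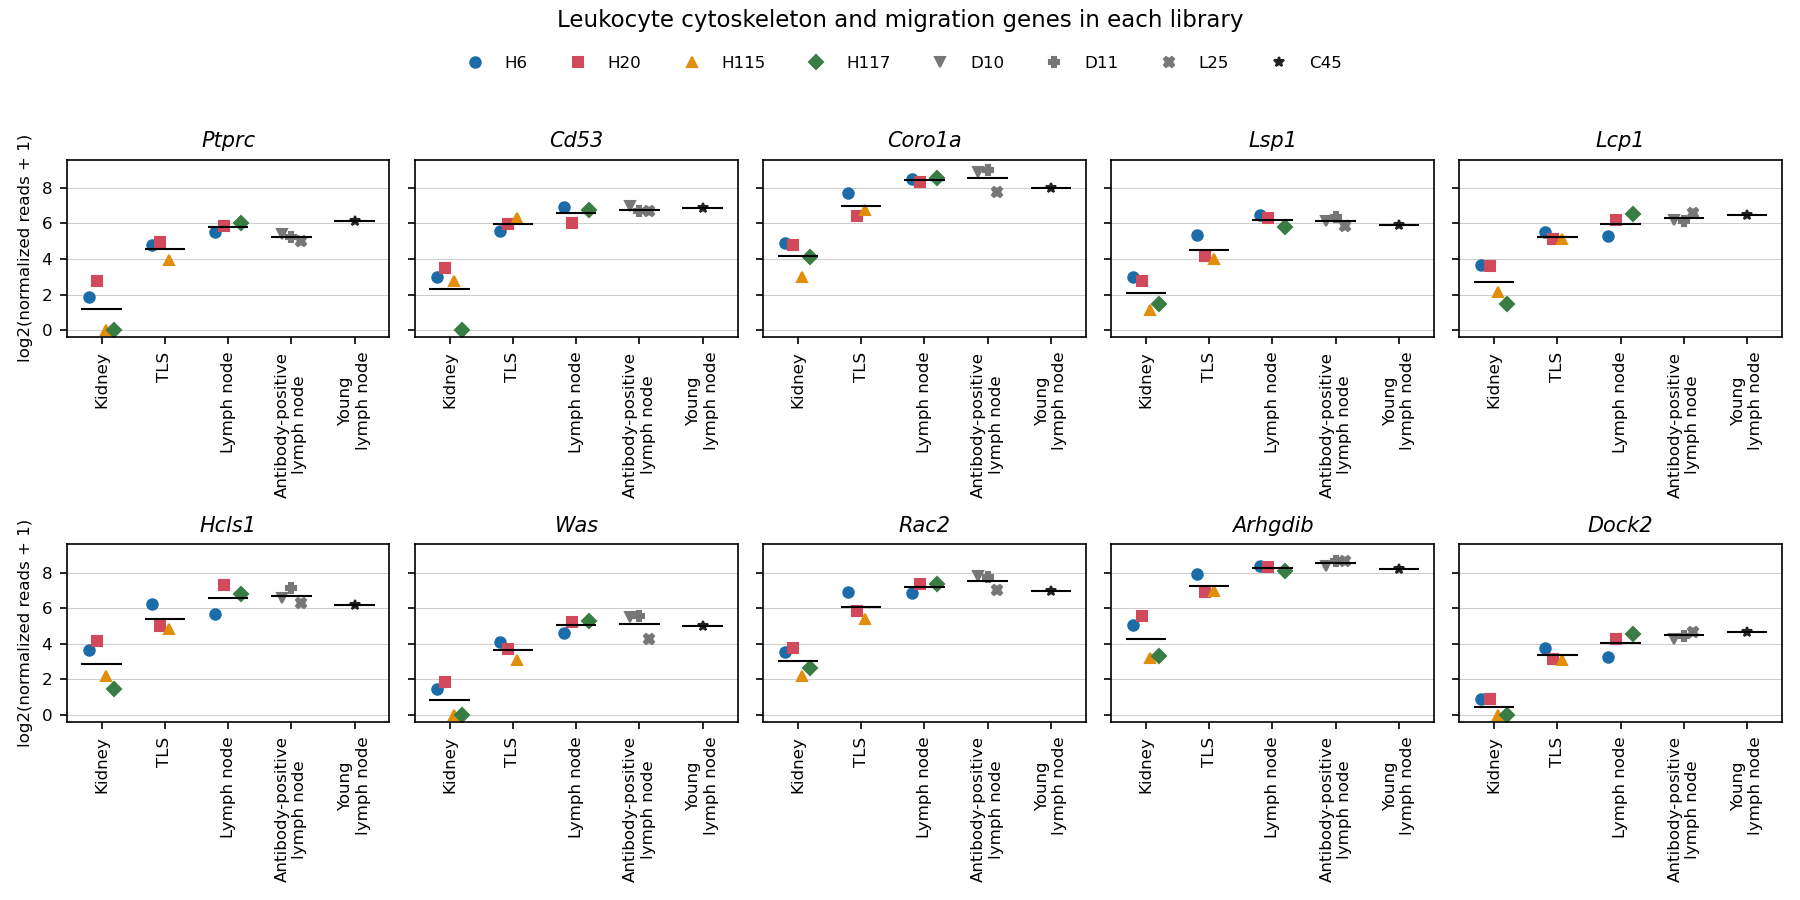
Level of each of the 10 genes in the 14 libraries, as log2(normalized reads + 1); each symbol is a library, its shape and color the mouse, and the bar is the group mean of the log2 values. For every gene the 4 kidneys lie below the 3 TLS, while TLS and lymph nodes overlap for 5 of the 10 genes.

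Of the membrane proteins, Ptprc had 2.65 (H6) and 5.90 (H20) normalized reads in kidney and was without a read in kidneys H115 and H117. In TLS it had 26.3 (H6), 29.9 (H20) and 14.2 (H115). The lowest TLS library was more than the kidney maximum, and the fitted log2 fold change was 2.68 ± 0.42 (SE; limma adjusted p = 0.00129). Cd53, which organizes membrane proteins of leukocytes, had 7.07 (H6), 10.1 (H20), 5.79 (H115) and 0 (H117) normalized reads in kidney. It had 47.5 (H6), 62.9 (H20) and 79.6 (H115) in TLS. Its log2 fold change of 3.20 ± 0.47 (limma adjusted p = 0.000794) was the largest of the 10 on the fitted scale, which understates changes of low genes. By ratio of means Dock2 was highest, at 21.8-fold, with at most 1 read in any kidney library. For Cd53, TLS H115, not TLS H6, was the highest TLS library.

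Among the actin-binding proteins, Coro1a, which recycles actin filaments and is needed for T-cell survival and traffic, had 29.2 (H6), 26.1 (H20), 6.95 (H115) and 15.97 (H117) normalized reads in kidney. Its TLS libraries had 212 (H6), 85.7 (H20) and 109 (H115), and its log2 fold change was 2.70 ± 0.46 (limma adjusted p = 0.00207). Lsp1, an actin-binding protein of lymphocytes and neutrophils, averaged 3.98 ± 2.95 (SD, n = 4) in kidney and 24.1 ± 13.7 (SD, n = 3) in TLS, with TLS H6 at 39.8 standing above 17.3 (H20) and 15.3 (H115). Lcp1, which cross-links filaments into bundles, averaged 6.93 ± 5.02 (SD, n = 4) and 37.5 ± 6.43 (SD, n = 3). Relative to its level it varied least of the 10 genes among the TLS libraries, from 33.8 to 44.9 normalized reads.

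Was and Hcls1, which promote actin branching, differed in level. Was had 1.77 (H6), 2.53 (H20), 0 (H115) and 0 (H117) normalized reads in kidney, none of them above 3 reads. In TLS it had 16.1 (H6), 11.8 (H20) and 7.63 (H115). Set against 3 reads in the kidney library with the fewest informative reads, the TLS mean was at least 2.22-fold higher, and Was was called (limma adjusted p = 0.00147). Hcls1 averaged 8.40 ± 7.06 (SD, n = 4) in kidney and 44.7 ± 26.7 (SD, n = 3) in TLS, with TLS H6 at 75.5 far above 31.4 (H20) and 27.3 (H115). It was the gene that depended most on individual libraries: its log2 fold change of 2.24 ± 0.57 fell to 2.02 without kidney H115, 1.91 without kidney H117 and 1.80 without TLS H6, with limma adjusted p of 0.0555, 0.0530 and 0.108, and over all 22 settings its adjusted p ran from 0.00488 to 0.181.

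The GTPase Rac2, its inhibitor and its exchange factor were each called higher in TLS. Rac2 had 10.6 (H6), 12.7 (H20), 3.48 (H115) and 5.32 (H117) normalized reads in kidney and 118 (H6), 55.8 (H20) and 41.4 (H115) in TLS, a log2 fold change of 2.81 ± 0.43 (limma adjusted p = 0.00102). Its inhibitor Arhgdib had 31.8 (H6), 46.4 (H20), 8.11 (H115) and 8.88 (H117) in kidney. In TLS it had 241 (H6), 119 (H20) and 125 (H115), a log2 fold change of 2.89 ± 0.53 (limma adjusted p = 0.00343). Both genes were lower in kidneys H115 and H117 than in kidneys H6 and H20. Dock2 had 1 read in each of kidneys H6 and H20 and none in kidneys H115 and H117, against 12.7 (H6), 7.86 (H20) and 7.63 (H115) normalized reads in TLS. The TLS mean was at least 1.77-fold above the level of 3 reads, and Dock2 was called (limma adjusted p = 0.00122). Was and Dock2 already ranked below the median of the 10 log2 fold changes, so placing them at their bounds could not move that median.

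Kidneys H115 and H117 also had 0 to 1.16 normalized reads of the fibroblast markers (Col1a1, Col1a2, Col3a1 and Pdgfrb) where kidneys H6 and H20 had 118 each, and 2312 and 3067 of the globin genes of red cells where H6 and H20 had 104 and 269. When only kidneys H6 and H20 were kept, an alternative chosen after seeing the data, 8 of the 10 genes were called and Lsp1 (limma adjusted p = 0.0609) and Hcls1 (limma adjusted p = 0.181) were not. In each of the 3 mice with both tissues, TLS exceeded kidney for all 10 genes, and with the mouse as a block 10 of 10 were called. The main fit called 8.62% of all genes tested higher in TLS, and the share under the mouse block is not given here.

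Markers of whole cell types did not all move with the 10 genes. In TLS versus kidney, 8 of 8 T-cell and 6 of 6 B-cell markers tested were called higher, as were 3 of 6 macrophage markers (C1qa, C1qb and C1qc). Over all genes tested, 8.62% were called higher. Of the endothelial, fibroblast and neutrophil markers tested, 0 were called. The summed level of 8 T-cell markers was 0 to 10.1 normalized reads in kidney and 106 to 208 in TLS. For 7 B-cell markers it was 0 to 21.1 and 319 to 460, with Ms4a1, Pax5, Cr2 and Fcer2a at 0 in all 4 kidneys. For 7 macrophage markers it was 94.1 to 442 and 449 to 1096. All 4 kidneys thus had reads of macrophage markers, where T-cell markers had few or none. Of the macrophage markers, Mrc1 had no read in kidneys H115 and H117 and Adgre1 none in kidney H117. The sums cover different genes, so their sizes cannot be compared between cell types. In kidney and TLS of the same mouse the macrophage sum was 442 and 449 (H20), 247 and 1096 (H6) and 144.9 and 524.5 (H115). Proximal tubule markers went the other way, from 4917 to 14910 in kidney to 781 (TLS H6), 3456 (H20) and 6178 (H115). TLS H6, with the lowest tubule level, was the TLS library with the highest level of 8 of the 10 genes. Urothelial markers were present in TLS (84.9 to 544) and nearly absent in kidney (0 to 11.5). The part of each of these cell types in the fold changes was not tested.

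**Figure D2:**
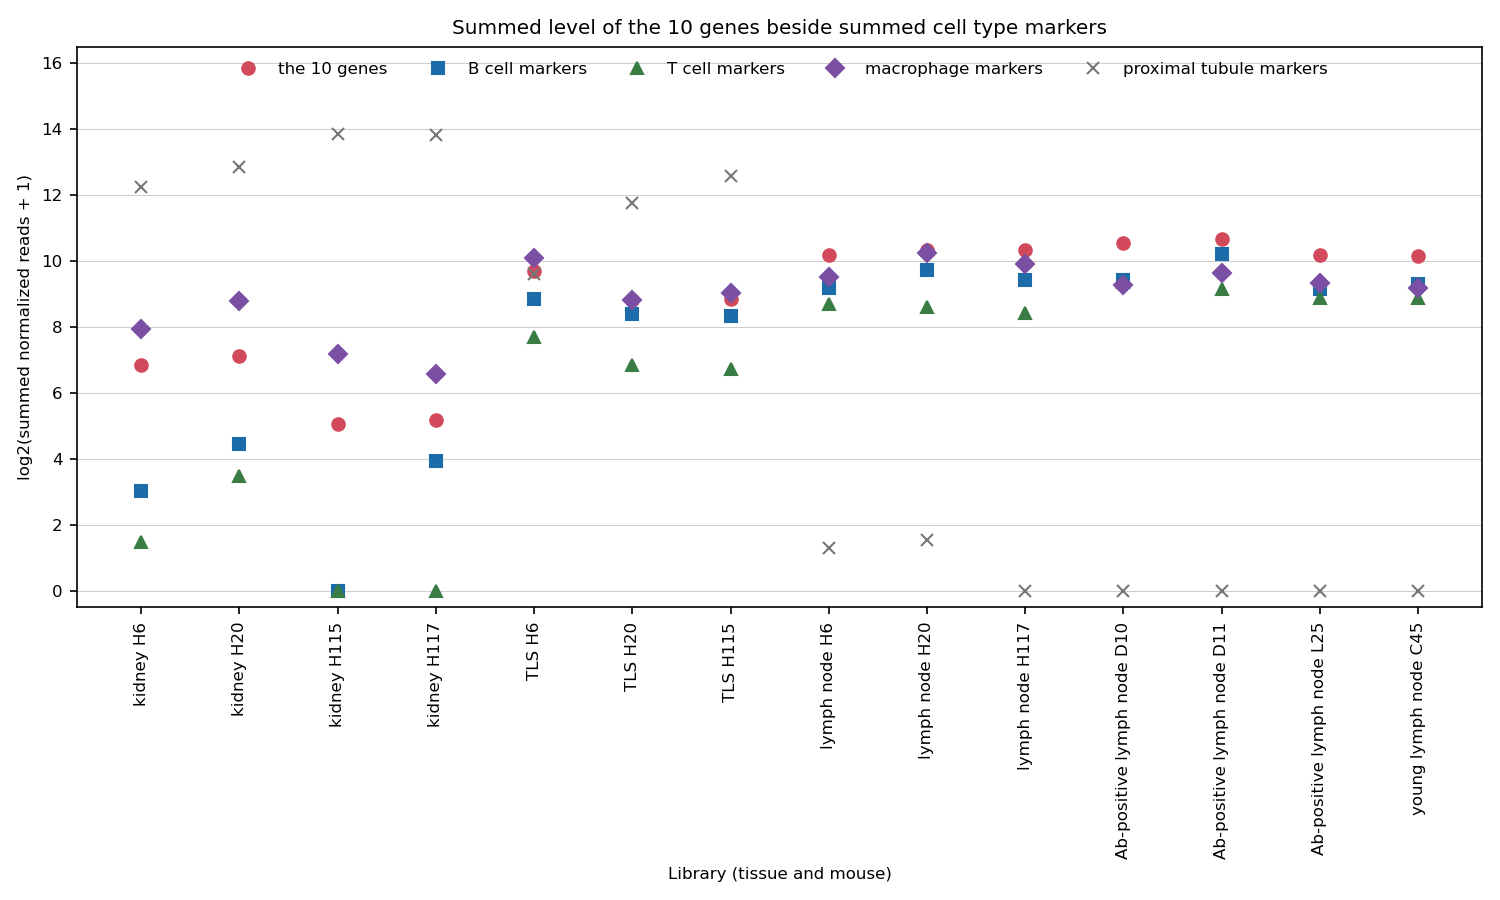
Summed level of the 10 genes and of marker genes of B cells, T cells, macrophages and proximal tubule in each library, as log2(summed normalized reads + 1). Kidneys had 0 to 10.1 normalized reads of T-cell markers but 94.1 to 442 of macrophage markers, and lymph nodes had at most 1.89 of proximal tubule markers.

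The second comparison set lymph nodes of proteinuric mice against TLS. All 10 genes had a higher fitted level in lymph node, by log2 differences of 0.60 to 1.61 with a median of 1.17 (all genes tested, 0.04). Only Lsp1 and Was were called, and 5 genes had an unadjusted p under 0.05, where 10.6% of the genes tested were called in either direction, 22.6% had an unadjusted p under 0.05 and 1.69% of the genes tested were called higher in lymph node. In 5 genes (Ptprc, Coro1a, Lsp1, Was and Arhgdib) the libraries did not overlap, as for 9.48% of the genes tested in this direction. Lsp1 had 86.9 (H6), 76.7 (H20) and 54.2 (H117) normalized reads in lymph node, all above the TLS maximum of 39.8, and its log2 fold change was 1.61 ± 0.45 (limma adjusted p = 0.0391). Was had 23.2 (H6), 36.9 (H20) and 37.2 (H117), above the TLS maximum of 16.1, and its log2 fold change was 1.35 ± 0.36 (limma adjusted p = 0.0316). Both calls were lost when TLS H20, TLS H115, lymph node H20 or lymph node H117 was left out, Lsp1 alone was lost without lymph node H6, and 4 genes (Lsp1, Was, Coro1a and Rac2) were called without TLS H6. Over the 21 settings the limma adjusted p of Lsp1 and its counterparts from count models ran from 0.00514 to 0.303, and that of Was over 20 settings from 0.00799 to 0.431.

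Cd53 differed least between lymph node and TLS. It had 120 (H6), 64.4 (H20) and 108 (H117) normalized reads in lymph node, of which H20 lay within the TLS range of 47.5 to 79.6, and its log2 difference of 0.60 had a 95% interval of -0.49 to 1.68. Coro1a had 362 (H6), 327 (H20) and 369 (H117), the narrowest spread relative to level of the 10 genes in lymph node, against a TLS maximum of 212. Its log2 difference of 1.47 (95% interval 0.40 to 2.54) missed the threshold (limma adjusted p = 0.0821), which does not show that the levels were alike. By DESeq2, Coro1a (adjusted p = 0.0474) and Lsp1 were called and Was was not (adjusted p = 0.0541), and the adjusted p of Coro1a ran from 0.0209 to 0.358 over the 21 settings. Arhgdib, at 329 (H6), 318 (H20) and 270 (H117), stayed above the TLS maximum of 241 with a log2 difference of 0.98 (95% interval -0.26 to 2.22). Ptprc, at 44.9 (H6), 57.8 (H20) and 63.1 (H117), lay above the TLS maximum of 29.9 (limma adjusted p = 0.119). In mouse H6, for which both tissues were sequenced, Hcls1 (75.5 in TLS and 49.3 in lymph node), Lcp1 (44.9 and 37.7), Rac2 (118 and 113) and Dock2 (12.7 and 8.69) were not higher in lymph node. In mouse H20 all 10 genes were higher in lymph node, Cd53 by the least (62.9 and 64.4). With the mouse as a block, Lsp1 was called (limma adjusted p = 0.0381) and Was was not (0.122).

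The summed T-cell markers went from 106 to 208 normalized reads in TLS to 341 to 411 in lymph node. Of the 8 markers, 5 were called (Cd8a, Lat, Cd3e, Cd2 and Cd3d), where 1.69% of all genes tested were called higher. The median log2 difference over all 8 was 1.44. The ratio of the summed level of the 10 genes to the summed T-cell markers was 4.01 (H6), 4.00 (H20) and 4.36 (H115) in TLS and 2.86 (H6), 3.30 (H20) and 3.77 (H117) in lymph node, so the libraries did not overlap. The ratio to B-cell markers did overlap, at 1.35 to 1.81 in TLS and 1.51 to 2.01 in lymph node. The ratio to macrophage markers was higher in lymph node without overlap, at 0.761 (H6), 1.02 (H20) and 0.879 (H115) in TLS and 1.59 (H6), 1.06 (H20) and 1.34 (H117) in lymph node. Proximal tubule markers fell to 0 to 1.89 normalized reads in lymph node. Ccl21a and Glycam1, made by lymph node stroma and high endothelial venules, were called higher in lymph node, where the summed markers of this group were 2077 to 2685 against 169 to 343 in TLS.

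Against kidney, lymph nodes had 10 of 10 genes called higher, with no overlap between libraries, where 43.8% of the genes tested were called in either direction, 51.0% had an unadjusted p under 0.05, 20.8% were called higher and 23.3% did not overlap in that direction. For the 8 genes with more than 3 reads in some kidney library, log2 fold changes ran from 2.998 (Lcp1) to 4.17 ± 0.46 (Coro1a, limma adjusted p = 1.55e-05), and the median of all 10 was 3.74. In mean normalized reads, lymph nodes exceeded kidneys 9.65-fold for Lcp1, 18.0-fold for Coro1a, 18.3-fold for Rac2 and 25.8-fold for Ptprc. Against 3 reads per kidney library, the difference was at least 6.10-fold for Was and at least 3.09-fold for Dock2. All 10 stayed called in each of the alternatives in which they were tested. This comparison and the previous ones share libraries, so they are not independent.

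**Figure D3:**
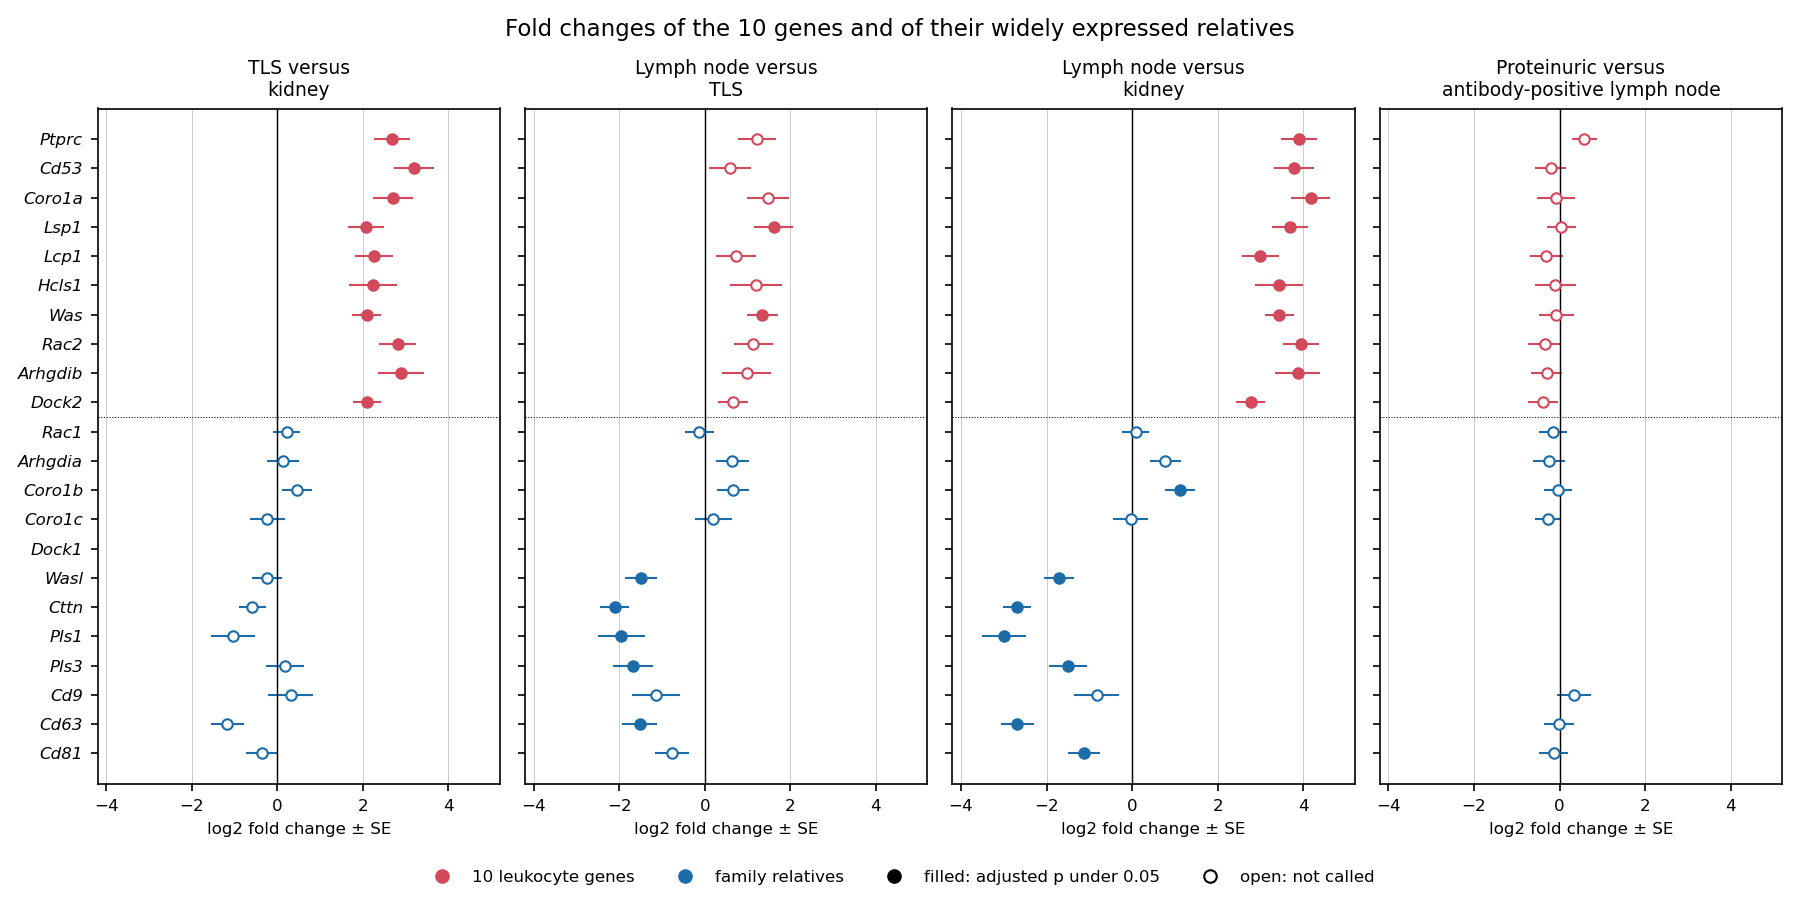
Fitted log2 fold change with its SE for the 10 genes (red) and for their widely expressed relatives (blue) in the 4 comparisons; filled symbols passed an adjusted p of 0.05, and genes without a symbol had too few reads to be tested. All 10 leukocyte genes were called in TLS versus kidney and 0 of the 11 tested relatives were.

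The last comparison asked whether the lymph node level depended on the stage of disease. Between proteinuric and antibody-positive mice 0 of the 10 genes were called by limma, as were 0 of the 6810 genes tested (0%), and 0 of the 10 had an unadjusted p under 0.05, as 3.16% of all genes did. By edgeR 0 genes and by DESeq2 13 genes were called, and 0 of the 10 by either tool. Log2 differences ran from -0.39 (Dock2) to 0.58 (Ptprc), with proteinuric above antibody-positive in Ptprc and Lsp1. Ptprc had 41.7 (D10), 36.2 (D11) and 31.0 (L25) normalized reads in antibody-positive mice, all below the 44.9 to 63.1 of proteinuric mice, with a 95% interval of the log2 difference of -0.09 to 1.24. Arhgdib, at 330.0 (D10), 396 (D11) and 403 (L25), lay just above the 270.3 to 329 of proteinuric mice. The libraries did not overlap for 2.50% of the genes tested in the first direction and for 6.08% in the other. RNA of antibody-positive nodes was purified with miRNeasy and that of proteinuric nodes with TRIzol, so kit and stage cannot be told apart. Within the antibody-positive group Coro1a ran from 217 (L25) to 516 (D11) and Was from 18.4 (L25) to 46.6 (D11).

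The young lymph node was 1 library, so it allows no test. Its 10 genes summed to 1134 normalized reads, against 1175 to 1294 in proteinuric and 1154 to 1625 in antibody-positive nodes. That sum lay below all 6 adult nodes, whereas Ptprc (68.9) and Dock2 (24.2) lay above all 6. Rac2 (123), Hcls1 (72.5), Arhgdib (297) and Coro1a (255) lay within the adult range.

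The relatives of these genes that many cell types use were not called with them. In TLS versus kidney, 0 of 11 relatives tested by limma were called (1 had an unadjusted p under 0.05), their median log2 difference was -0.23, and they ranged from -1.17 (Cd63) to 0.46 (Coro1b), where 6.07% of the genes tested were called lower in TLS and 29.2% had an unadjusted p under 0.05. Dock1 had too few reads to be tested. Rac1, the broadly expressed counterpart of Rac2, averaged 33.5 normalized reads in kidney, 38.8 in TLS and 35.04 in lymph node. From TLS to lymph node, 5 of 11 relatives fell (Cttn, Pls1, Pls3, Cd63 and Wasl), where 8.87% of the genes tested were called lower. Cttn, the widely expressed cortactin related to Hcls1, had 26.3 (H6), 21.2 (H20) and 16.4 (H115) normalized reads in TLS and 1.45 (H6), 3.79 (H20) and 4.86 (H117) in lymph node (log2 difference -2.11 ± 0.34, limma adjusted p = 0.00143). Pls1, an epithelial plastin related to Lcp1, had 7.10 to 34.8 normalized reads in kidney, 2.54 to 15.3 in TLS and no read in any of the lymph nodes. From kidney to lymph node 6 of 11 relatives fell (Pls1, Cttn, Cd63, Wasl, Pls3 and Cd81), where 23.0% of the genes tested were called lower. Coro1b rose (log2 fold change 1.12 ± 0.35, limma adjusted p = 0.0209). Coro1b overlaps Ptprcap on the same strand, and Ptprcap was also called higher, so reads of Coro1b in the shared stretch are uncertain.

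The share that a leukocyte gene takes of the reads of a pair needs no size factor. Rac2 took 10.0% (H115) to 25.9% (H20) of the reads of Rac2 and Rac1 in kidney, 57.3% (H20) to 72.8% (H6) in TLS, 75.7% (H6) to 85.3% (H20) in proteinuric lymph node and 82.2% to 83.4% in antibody-positive lymph node. The 3 tissues did not overlap. Hcls1 took 7.69% to 31.7% of the reads of Hcls1 and Cttn in kidney, 59.7% to 74.2% in TLS and 95.7% to 97.7% in proteinuric lymph node. Arhgdib took 6.36% to 27.4% of the reads of Arhgdib and Arhgdia in kidney, 54.0% to 56.9% in TLS and 57.1% to 68.6% in proteinuric lymph node. In mouse H20 TLS and lymph node were nearly alike (56.9% and 57.1%), whereas in mouse H6 they were further apart (56.2% and 68.6%). In Cd53 and Cd63 the share was 0% to 1.71% in kidney, 18.7% to 28.4% in TLS and 51.9% to 64.4% in proteinuric lymph node. For Lcp1 and Pls3 it was 25% to 50% in kidney, where kidney H117 had 1 read of each, 70.5% to 85.5% in TLS and 96.25% to 98.2% in proteinuric lymph node.

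**Figure D4:**
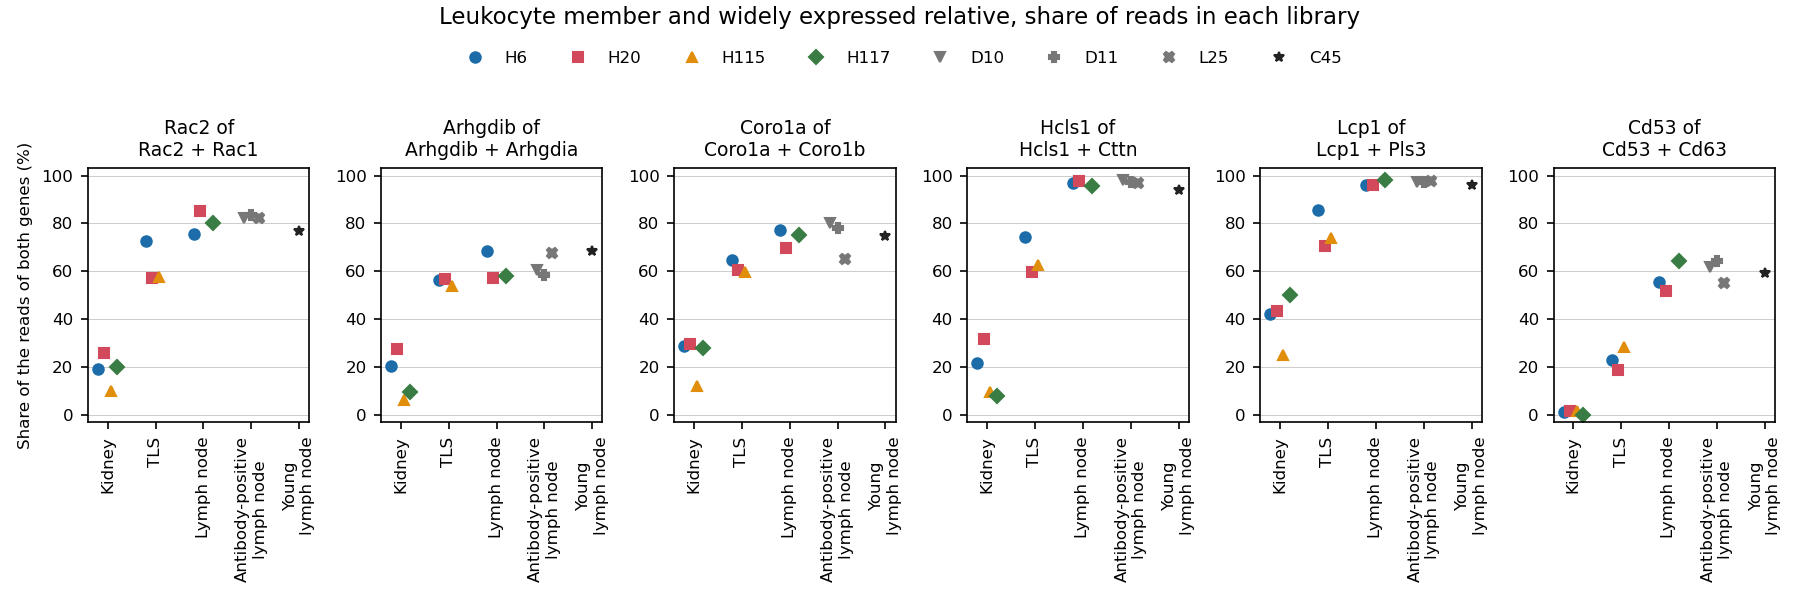
Percentage of the reads of a pair that fell on the leukocyte gene, in each library, for 6 pairs of a leukocyte gene and a widely expressed relative; symbols are the mice. In Rac2 and Rac1 the share was 10.0% to 25.9% in kidney, 57.3% to 72.8% in TLS and 75.7% to 85.3% in proteinuric lymph node.

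Among themselves the 10 genes differed widely in level. Per kilobase of the longest coding transcript, the proteinuric lymph node means were highest for Arhgdib (256 normalized reads per kilobase), Coro1a (202), Cd53 (56.1), Hcls1 (52.1) and Rac2 (48.3), and lowest for Ptprc (10.9) and Dock2 (2.57). In TLS the first 3 were in the same order, with Arhgdib at 136 and Coro1a at 77.6, whose ranges of 100 to 202 and 49.0 to 121 overlapped. In kidney Arhgdib (19.9) and Coro1a (11.2) again led, with overlapping ranges of 6.80 to 38.9 and 3.98 to 16.7. Cd53 did not keep pace with Coro1a across TLS libraries: the ratio of their reads was 0.22 in TLS H6, 0.73 in TLS H20 and 0.73 in TLS H115, and 0.20 to 0.33 in proteinuric lymph node. This pair was chosen after its values were seen. TLS H115 also held 8724 normalized reads of globin genes against 78.9 (H6) and 282 (H20) in the other TLS libraries, whose part in the level of Cd53 was not tested.

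Over the 14 libraries each of the 10 genes correlated with the mean standardised profile of the other members at Pearson r from 0.94 (Cd53) to 0.99 (Rac2). The non-member genes most like the mean profile of all 10, of 7389 with a mean value of at least 5, were Apobec3 (0.997), Vav1, Lck, Il2rg, H2-Q10, Fli1, Ptpn6, Sp110, Selplg and Sash3 (0.989). They include a Rac exchange factor (Vav1), a Src-family kinase (Lck), a phosphatase (Ptpn6) and a selectin ligand (Selplg), while H2-Q10 belongs to a family of near-identical genes between which reads may have been split. These correlations describe 14 points that share tissues and mice.

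Wider lists of related genes were higher in TLS than kidney wherever their genes were called. Of the genes of actin assembly and bundling 10 of 23 rose in TLS versus kidney and 0 fell, with a median log2 difference of 1.38 (8.62% of all genes tested were called higher and 6.07% lower), led by Evl (log2 fold change 2.19 ± 0.48), Nckap1l, a subunit of the hematopoietic WAVE complex (2.16 ± 0.53), and Gmfg. In Gmfg kidney had at most 3 reads per library, and the TLS mean was at least 2.05-fold higher. The other 13 were not called.

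Of the integrins, adhesion and homing receptors 17 of 21 rose in TLS versus kidney, where 8.62% of all genes tested were called higher, led by the tetraspanin Cd37 (3.77 ± 0.43), the adhesion ligand Cd48 (3.32 ± 0.43) and the chemokine receptor Cxcr4 (3.32 ± 0.46). Of CD45 partners and Src-family kinases 12 of 14 rose against the same 8.62%, led by the CD45-associated protein Ptprcap (3.50 ± 0.50), Lck (2.93 ± 0.40) and the adaptor Lat2 (2.83 ± 0.36). Ptprcap lies beside and overlaps Coro1b on the same strand, so reads in the shared stretch are uncertain. The largest limma adjusted p of these named genes was 0.0166, of Nckap1l.

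From TLS to lymph node, 2 of 23 actin genes rose (Pstpip1 and Cotl1), as did 2 of 21 adhesion and homing receptors and 4 of 14 CD45 partners and kinases (Ptprcap, Lck, Fyn and Csk), and 0 fell in each list, where 1.69% of all genes tested were called higher. Ccr7, the chemokine receptor with which naive lymphocytes enter lymph nodes, rose by 1.502 ± 0.39 on the log2 scale (limma adjusted p = 0.0258). Against kidney, lymph nodes had 19 of 23 actin genes, 20 of 21 adhesion and homing receptors and 13 of 14 CD45 partners and kinases higher and 0 lower, where 20.8% of all genes tested were called higher, led by Ptprcap (5.49 ± 0.50), Cd37 (4.46 ± 0.43) and Lck (4.46 ± 0.40). Between the stages of disease limma called 0 of 23, 0 of 23 and 0 of 16 genes of these lists, and 0, 3 and 2 had an unadjusted p under 0.05, as 3.16% of all genes tested did.

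**Figure D5:**
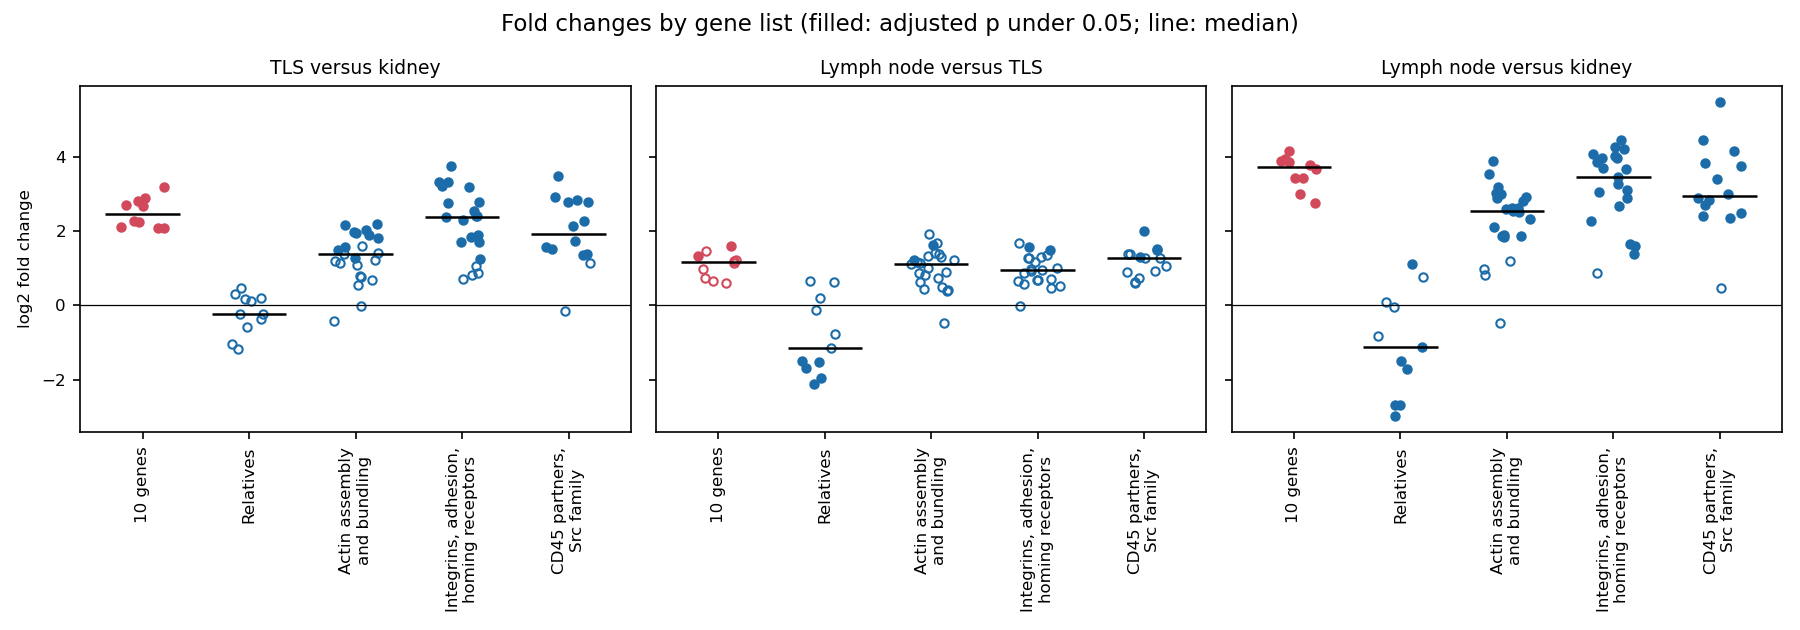
Fitted log2 fold changes of the 10 genes, their relatives and 3 wider lists in the 3 tissue comparisons; each circle is a gene, filled if its adjusted p was under 0.05, and the line is the list's median. In TLS versus kidney the medians were 2.47 for the 10 genes, -0.23 for the relatives and 2.38 for integrins, adhesion and homing receptors.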

How the data were processed

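Poly(A) RNA was selected with Dynabeads, fragmented with RNase III and sequenced on an Ion Torrent PGM. The authors trimmed, mapped and counted reads with CLC Genomics Workbench 8, using its defaults and the GRCm38 genome. Whether counting used strand is not stated. The processing notes on the labels of these libraries instead name BWA 0.6.2-r126, HTSeq, edgeR, limma and mm9, without saying for which samples. They differ from the software and genome given above, and which account applies to these libraries is not settled here. The deposited signal values are, by the values themselves, read counts plus 1, each divided by its library's DESeq size factor: for 100% of values, whole reads were recovered within 0.001. Levels are reads without the added read over the size factor. Genes without a read (406) could not be tested.

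Tests used limma 3.58.1 (trend and robust moderation, R 4.3.3) on log2(deposited value + 1), where a gene's mean value reached 5, with Benjamini-Hochberg adjustment and a threshold of 0.05; fold changes on this scale understate changes of low genes. The 10 proteinuric libraries were in 1 fit and the 6 adult lymph nodes in another. A bound against a group with no more than 3 reads per library used 3 reads (2.36 to 5.32 normalized reads). These floors and intervals cover counting error or library spread only. edgeR 4.0.16 and DESeq2 1.42.0 on the recovered reads, other scalings, filters and pseudocounts, and leaving out libraries were alternatives. The tests were checked on simulated data with known changes. All 10 genes, their relatives, up to 3 called genes per list and direction with the largest change, and the 10 most similar genes were named. The members and lists were chosen with earlier results of these data known.

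Mouse numbers pair libraries because they mark 1 animal. Deviations from the tissue means correlated at 0.351, 0.364 and 0.454 in the 3 same-mouse pairs of kidney and TLS. The median was -0.239 in the 9 pairs of different mice, which ran from -0.498 to 0.361 and so overlapped the same-mouse pairs. Deviations cancel out within a tissue of so few libraries, so positive same-mouse correlations push those of different mice down. The contrast therefore cannot test the pairing. Same-mouse pairs with lymph node had correlations of -0.335, -0.326 and 0.202 with kidney, and -0.266 and 0.0254 with TLS. Lymph nodes of antibody-positive mice came from other animals. No 2 libraries of a group agreed within sampling noise. Of 29 samples, 15 whole-kidney samples were not analysed here. Some genes and 1 wider list are not reported here.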

Additional observations from a re-analysis of the deposited data

How the results depend on the processing

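Direction did not change for any of the 10 genes in the 3 tissue comparisons under the alternatives run. In lymph node versus kidney, the number called was 10 in each alternative in which all 10 were tested. In TLS versus kidney it was 9 to 10 with 1 library left out, 8 of the 8 genes tested at a mean value of at least 20, and 8 with only kidneys H6 and H20. In lymph node versus TLS, 2 were called in the fit reported. It was 0 with edgeR under TMM or DESeq2 size factors, a pseudocount of 0.1, a mean value of at least 20, TMM-scaled RPM, RPM without antibody, T-cell receptor and ribosomal RNA genes, the added read removed, or only libraries with under 20% ribosomal RNA. With DESeq2 it was 2, but Coro1a took the place of Was. It was 1 with only the 2 tissues compared, 3 with a pseudocount of 5, 5 with all 6 adult lymph nodes, and 0 to 4 with 1 library left out. With the mouse as a replicate block it was 1 in lymph node versus TLS and 10 in each of the other 2 tissue comparisons. Why these counts moved was not tested. Removing the added read, keeping only kidneys H6 and H20 and keeping only libraries with under 20% ribosomal RNA were chosen after seeing the data. No paired analysis was possible between the disease stages because their lymph nodes came from different mice.

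Between the disease stages 0 of the 10 were called under any alternative, and log2 differences of 6 genes changed sign. Hcls1 was 0.0853 and 0.0603 with edgeR (TMM, DESeq2 size factors) and 0.0638 with DESeq2. In RPM (reads scaled to a fixed library total) without antibody, T-cell receptor and ribosomal RNA genes, Cd53 was 0.0235, Coro1a 0.14, Hcls1 0.13 and Was 0.16. With 1 library left out, Cd53 ran from -0.38 to 0.0653, Coro1a from -0.48 to 0.14, Lsp1 from -0.10 to 0.24, Lcp1 from -0.55 to 0.0415, Hcls1 from -0.45 to 0.36 and Was from -0.47 to 0.15. The cause was not tested.

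Over all genes, the number called in TLS versus kidney was 1084 as reported, 566 at a mean value of at least 20, 540 in RPM without those genes, 513 with only kidneys H6 and H20, and 530 to 1344 with 1 library left out (530 without TLS H6, 692 without kidney H115). In lymph node versus TLS it was 780, against 315 at a mean value of at least 20, 408 with only libraries under 20% ribosomal RNA, 518 with only the 2 tissues, 1172 with all 6 adult lymph nodes and 480 to 977 with 1 library left out. In lymph node versus kidney it was 3230, against 1284 at a mean value of at least 20. Calls higher in TLS than kidney were 58.7% of those calls as reported, 79.6% and 72.5% with edgeR (TMM, DESeq2 size factors), 68.8% with DESeq2, 77.2% in TMM-scaled RPM and 74.4% in RPM without those genes. Calls higher in lymph node than TLS were 16.03% as reported, 4.8% with edgeR under TMM, 2.4% in TMM-scaled RPM and 3.0% in RPM without those genes. Scaling moved the median of all genes by up to 0.22 on the log2 scale. With 20 to 164 reads of the 10 genes in each kidney library, the levels of Was, Dock2 and Ptprc in kidney rest on few reads.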

Other observations

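Between lymph nodes of proteinuric and antibody-positive mice, Itgam and Itgax are given as genes chosen after their values were seen. Itgam, the CD11b integrin subunit of myeloid cells, averaged 16.4 and 3.72 normalized reads, with a log2 difference of 1.62 (95% interval 0.78 to 2.45, limma adjusted p = 0.638). Itgax, the CD11c subunit, averaged 34.9 and 8.72 (log2 difference 1.61, 95% interval 0.43 to 2.79, limma adjusted p = 0.998). The libraries of the groups did not overlap for these 2 genes, as for 2.50% of the genes tested in this direction, and 0 of the 2 passed the threshold. Their intervals are not adjusted for the choice of these genes among all those tested. Here too, RNA kit and disease stage cannot be told apart. Neutrophil markers summed to 223 normalized reads in proteinuric lymph node H6, 35.05 in H20 and 15.4 in H117, against 1.85 to 12.6 in antibody-positive nodes, and their part in these differences was not tested.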
